A study of Mus musculus with 4 samples.

Results

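The Toll-like receptor genes of Tfh-polarized CD4+ T cells were read together with Cd180, a relative of these receptors without their signalling domain, and Myd88, the adaptor that most of them share. The genes were taken by symbol, which gave 10 (Tlr1, Tlr2, Tlr3, Tlr4, Tlr6, Tlr7, Tlr9, Tlr12, Cd180 and Myd88) of the 54752 genes listed in the deposited counts. The cells came from the spleen of WT mice and of Mek1/2-tKO mice, which carry floxed alleles of both Map2k1 and Map2k2 and the Cd4-Cre transgene. Cre under the Cd4 promoter deletes the genes of the kinases MEK1 and MEK2 in T cells and leaves them in cells such as B cells. Naïve CD4+ T cells of both genotypes were activated through CD3 and CD28 with IL-6 while IL-2, IL-4, IFN-γ and TGF-β were blocked by antibodies, viable cells were sorted again on day 3, and their RNA was sequenced in 2 libraries per genotype. Neither the labels nor the methods give the age of these mice, whether WT mice carried Cre, or whether libraries came from separate mice, so p values measure the spread between these libraries. All 10 genes entered the test, Tlr3 only through its Mek1/2-tKO libraries, since neither WT library reached the low-count filter.

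Toll-like receptors recognize conserved parts of microbes. Tlr1, Tlr2, Tlr4 and Tlr6 act at the cell surface on lipoproteins and lipopolysaccharide, whereas Tlr3, Tlr7, Tlr9 and Tlr12 act in endosomes, the first 3 of them on nucleic acids and Tlr12 on profilin of parasites. Apart from Tlr3, which signals through Ticam1, they recruit Myd88, Irak kinases and Traf6 and lead to NF-κB, and the kinase Map3k8 links this route to MEK1/2 and ERK. B cells, macrophages and dendritic cells are the best known carriers of these receptors, and helper T cells carry Myd88 also for the receptors of IL-1, IL-18 and IL-33.

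In Mek1/2-tKO cells 7 of the 10 genes were higher than in WT cells and none was lower. A gene was called where edgeR's quasi-likelihood test gave an adjusted p under 0.05 and the fold change reached 1.5, and changes are given below as log2 fold change (log2 FC, Mek1/2-tKO over WT) ± SE with the adjusted p of this test. Over all 14330 tested genes, 19.3% were called higher and 16.4% lower by the same rule. The genes that rose were Tlr1, Tlr3, Tlr4, Tlr6, Tlr7, Tlr9 and Cd180, with log2 FC values from 1.09 to 3.14, and those that did not pass were Tlr2, Tlr12 and Myd88. Tlr3 could pass the filter only by being higher in Mek1/2-tKO, so its call carries no weight of its own, and of the other 9 genes 6 were higher. The median log2 FC of these 9 was 1.20, beside 0.02 over all tested genes. In 8 of the 10 genes both Mek1/2-tKO libraries were above both WT libraries, as they were in 39.5% of the tested genes. The members were chosen with earlier results of these data known, so these counts are a description.

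**Figure D1:**
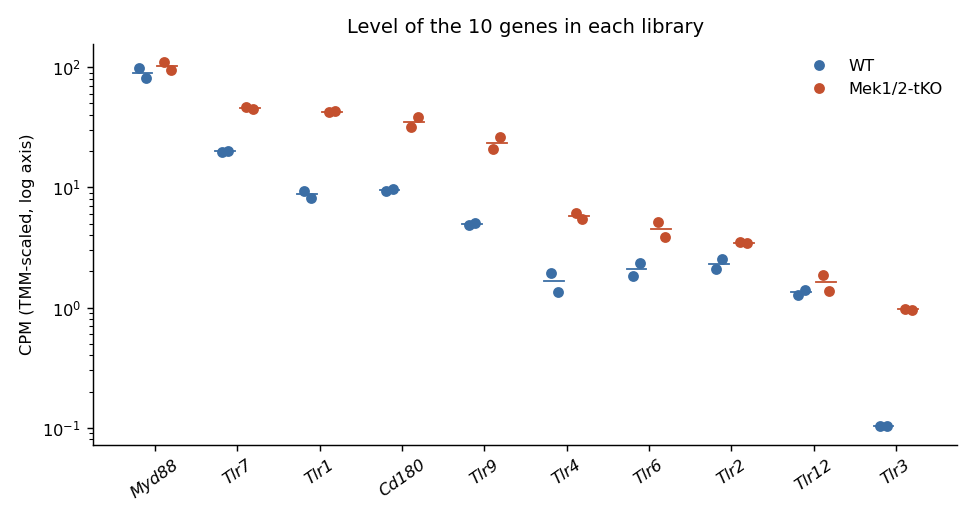
Level of each gene as counts scaled to the TMM-adjusted library size (CPM, log axis) in the 2 WT and the 2 Mek1/2-tKO libraries. Each point is a library and each short line the mean of a genotype. The points of the genotypes are apart for all genes but Myd88 and Tlr12.

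The stretches in front of the genes are shown for the members for which RefSeq's first base (build GRCm38.p6) is also the first base of the deposited gene model, a condition that Tlr9, Cd180 and Tlr12 met. The first 2 rose and Tlr12 did not. The 250 bases before the start were searched on both strands for GGAAGT (ETS factors, among which are targets of ERK) and TGANTCA (AP-1), which do not overlap here, and matches are in capitals. Each sequence is written in the direction of its gene.
Tlr9, chr9:106222348-106222597, plus strand: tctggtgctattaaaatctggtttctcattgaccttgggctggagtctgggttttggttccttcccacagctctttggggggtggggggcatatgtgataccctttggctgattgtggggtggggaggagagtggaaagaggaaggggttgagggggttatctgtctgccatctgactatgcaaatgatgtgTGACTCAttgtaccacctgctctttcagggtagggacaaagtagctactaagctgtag
Cd180, chr13:102693308-102693557, plus strand: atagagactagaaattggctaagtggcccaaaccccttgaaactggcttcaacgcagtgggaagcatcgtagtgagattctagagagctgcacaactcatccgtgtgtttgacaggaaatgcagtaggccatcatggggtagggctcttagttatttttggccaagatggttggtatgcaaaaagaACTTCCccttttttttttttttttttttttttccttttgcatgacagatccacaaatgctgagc
Tlr12, chr4:128618620-128618869, minus strand: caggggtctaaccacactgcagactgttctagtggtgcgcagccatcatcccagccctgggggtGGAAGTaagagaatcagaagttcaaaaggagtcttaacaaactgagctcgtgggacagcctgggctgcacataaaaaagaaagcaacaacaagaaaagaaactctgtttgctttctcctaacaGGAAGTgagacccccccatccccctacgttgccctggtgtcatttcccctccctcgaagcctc

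The window of Tlr9 held 1 match to the AP-1 letters, which 6.75% of 32817 windows of the same length held. Those of Cd180 and Tlr12 held 1 and 2 matches to the ETS letters, found in 19.7% of all windows. Windows were listed for 8 of the 10 genes. A match describes the letters and not a bound site.

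Among the receptors of the cell surface, Tlr1, the partner of Tlr2 in the recognition of triacylated lipoproteins, had 183 and 157 counts in WT and 658 and 805 counts in Mek1/2-tKO. It rose from 8.77 ± 0.883 to 42.7 ± 0.260 CPM (SD, n = 2 each here and below), or log2 FC 2.28 ± 0.14 (adjusted p = 1.74e-08). The genotypes were far apart for this gene compared with the spread within each. Tlr6, which pairs with Tlr2 for diacylated lipoproteins, had 36 and 45 counts in WT and 79 and 72 in Mek1/2-tKO. It rose by log2 FC 1.09 ± 0.34 (adjusted p = 0.0157). The call of Tlr6 was not firm, since the adjusted p was 0.0664 in DESeq2, 0.0887 without WT replicate 1 and 0.0911 without Mek1/2-tKO replicate 1. In fits without a library the other genotype alone gives the spread, and the lone library is assumed to vary like it. The common partner Tlr2 had 41 and 49 counts in WT and 54 and 65 in Mek1/2-tKO. Both of its Mek1/2-tKO libraries were higher, but log2 FC 0.58 ± 0.35 did not pass (adjusted p = 0.175). Tlr4, the receptor for lipopolysaccharide, had 38 and 26 counts in WT and 95 and 103 in Mek1/2-tKO. It rose from 1.65 ± 0.425 to 5.81 ± 0.460 CPM, or log2 FC 1.81 ± 0.33 (adjusted p = 4.16e-04).

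Among the receptors of the endosome, Tlr7, which recognizes single-stranded RNA, was the most abundant one in WT cells, with 386 and 385 counts, and had 720 and 847 counts in Mek1/2-tKO. It rose from 19.9 ± 0.113 to 45.8 ± 0.991 CPM, or log2 FC 1.20 ± 0.12 (adjusted p = 1.69e-06). Tlr9, the receptor for unmethylated CpG DNA whose upstream sequence is given above, had 95 and 98 counts in WT and 322 and 488 in Mek1/2-tKO. It rose from 4.98 ± 0.147 to 23.4 ± 3.67 CPM, and log2 FC 2.23 ± 0.19 (adjusted p = 3.66e-07) was near that of Tlr1. The 2 Mek1/2-tKO libraries differed from each other in Tlr9 more than the WT libraries did, although both were above WT. Tlr3, the receptor for double-stranded RNA, was almost without counts in WT, with 2 in each library, and had 15 and 18 in Mek1/2-tKO. Its ratio of summed counts was 9.34 with a 95% interval of 3.32 to 36.3 (exact binomial, counting error only), and the adjusted p was 0.00610. Since the gene entered the test through the genotype in which it was higher, this is given as a description. Tlr12 had 25 and 27 counts in WT and 29 and 26 in Mek1/2-tKO. Its libraries overlapped between the genotypes, and log2 FC 0.27 ± 0.49 did not pass (adjusted p = 0.661).

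**Figure D2:**
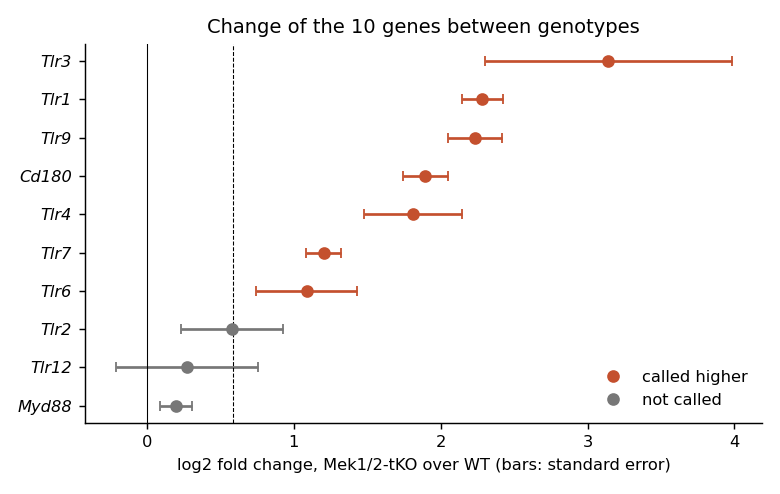
Log2 fold change of each gene in Mek1/2-tKO over WT (horizontal axis) with its standard error from edgeR's fit as the bar. The dashed line marks the fold change threshold of 1.5. The 7 genes called higher lie at or above 1.09, and the bar of Tlr3 is the widest.

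Cd180, which with its partner Ly86 tunes the response of B cells to lipopolysaccharide, had 181 and 186 counts in WT and 495 and 721 in Mek1/2-tKO. It rose from 9.47 ± 0.253 to 35.2 ± 4.54 CPM, or log2 FC 1.90 ± 0.15 (adjusted p = 2.30e-07). Myd88 was by far the most abundant of the 10 genes, with 1899 and 1555 counts in WT and 1702 and 1780 in Mek1/2-tKO. Its mean level was 89.1 ± 11.9 CPM in WT against 102 ± 10.7 CPM in Mek1/2-tKO, the libraries of the genotypes overlapped, and log2 FC 0.20 ± 0.11 did not pass (adjusted p = 0.137). Leaving out WT replicate 2 gave 0.07 and leaving out WT replicate 1 gave 0.34, both under the fold change threshold.

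Some of these values have limits set by the sequence of the genes. Of the 100-base windows of the annotated transcripts, 7.89% of those of Tlr1 and 7.09% of those of Tlr6 are identical between the pair. The counts hold only uniquely mapped reads, and how many reads of this stretch were lost was not tested. The deposited gene models share exon bases with genes on the other strand over 11.3% of Myd88 (Acaa1a), 7.32% of Tlr3 (Gm45542) and 4.04% of Cd180 (Mast4), and the strand setting of the counting is not given in the sources used here. Acaa1a, a peroxisomal thiolase, was higher in both Mek1/2-tKO libraries but under the fold change threshold (log2 FC 0.49, adjusted p = 8.06e-04). Mast4, a kinase, had a log2 FC of 0.55 and did not pass (adjusted p = 0.267). Gm45542 was not among the tested genes.

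Levels of different genes were compared per exon length, as RPKM (CPM divided by the exon length in kilobases). In WT cells the order was Myd88 (34.6 RPKM), Tlr7 (4.87), Tlr1 (2.62), Cd180 (2.10), Tlr9 (1.43), Tlr2 (0.771), Tlr6 (0.561), Tlr12 (0.422), Tlr4 (0.297) and Tlr3 (0.0198), and the ranges of neighbours did not overlap. In Mek1/2-tKO cells Tlr1 (12.8 RPKM) stood above Tlr7 (11.2), and they were followed by Cd180 (7.80) and Tlr9 (6.73), whose ranges overlapped. Below them came Tlr6 (1.20), Tlr2 (1.15) and Tlr4 (1.05), and the range of Tlr6 overlapped those of Tlr2 and Tlr4. Tlr12 (0.513) and Tlr3 (0.185) came last, and Myd88 stood at 39.7 RPKM. The smallest two-sided p of an exact permutation test with 2 libraries per genotype is 0.333, and the order of neighbours rests on ranges alone.

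The rise was uneven, and the make-up of the receptors differed between the genotypes. The summed level of the 8 receptors was 11.0 RPKM in each WT library and 34.5 and 35.1 RPKM in the Mek1/2-tKO libraries. Tlr7 made up 44.0 and 44.6% of this sum in WT and 33.0 and 31.5% in Mek1/2-tKO. The share of Tlr1 was 25.4 and 22.2% in WT and 36.8 and 36.5% in Mek1/2-tKO, and that of Tlr9 was 12.7 and 13.3% in WT and 17.3 and 21.3% in Mek1/2-tKO. Within a library, the ratio of Tlr9 to Tlr7 (RPKM) was 0.289 and 0.299 in WT and 0.525 and 0.676 in Mek1/2-tKO, and the ratio of Tlr1 to Tlr2 was 4.02 and 2.89 in WT and 11.0 and 11.2 in Mek1/2-tKO. The ratio of Myd88 to Tlr7 went the other way, from 7.80 and 6.40 in WT to 3.75 and 3.33 in Mek1/2-tKO. The genotypes did not overlap in 6 of the 7 ratios computed, which were chosen with earlier results known. Such separation was common among single genes. Both Mek1/2-tKO libraries were above both WT libraries in 39.5% of the tested genes and below both in 38.8%.

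**Figure D3:**
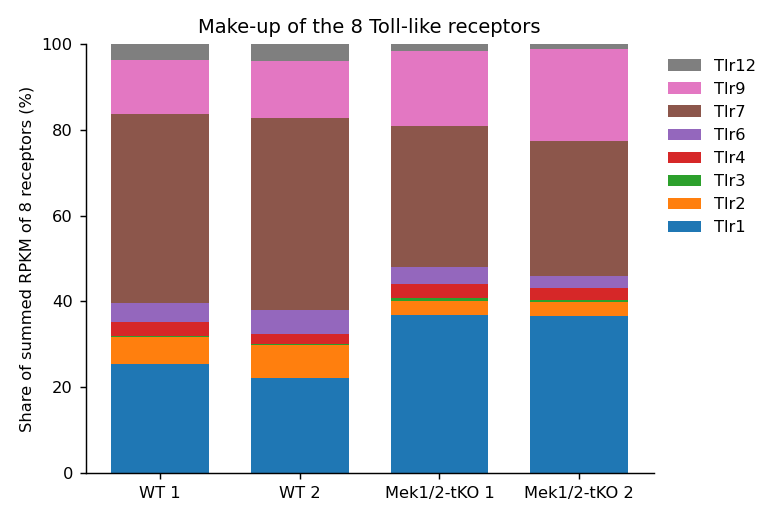
Share of each receptor (%) in the summed RPKM of the 8 Toll-like receptor genes, 1 bar per library. The share of Tlr1 is 36.8 and 36.5% in the Mek1/2-tKO bars and 25.4 and 22.2% in the WT bars, and that of Tlr7 is smaller in Mek1/2-tKO.

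The 4 Toll-like receptors outside the 10 genes were at or near 0. Tlr5 had 2 counts in WT replicate 1 and none elsewhere, Tlr8 and Tlr11 had none in any library, and Tlr13 had 4 counts in WT replicate 1 and 8 in Mek1/2-tKO replicate 1. None of them could be tested. A count of 0 allows 3 counts, which is 0.154 to 0.194 CPM in these libraries.

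Genes of proteins that hold, load or move the receptors rose in the same libraries. Of 10 genes of co-receptors, chaperones and trafficking factors, 8 were tested, 7 were higher and none was lower, with a median log2 FC of 1.69. Without Ly96, which reached the filter in both libraries of Mek1/2-tKO only, 6 of 7 were higher. Unc93b1, which carries the receptors of nucleic acids to the endosome, rose from 80.5 ± 7.13 to 401 ± 20.7 CPM, or log2 FC 2.32 ± 0.09 (adjusted p = 1.30e-10). The ratio of Unc93b1 to Tlr7 (RPKM) was 5.48 and 6.16 in WT and 11.9 and 13.2 in Mek1/2-tKO. The ratio of Ly96 to Tlr4, by contrast, overlapped between the genotypes, at 2.15 and 1.67 in WT and 1.83 and 1.37 in Mek1/2-tKO. Ly86, the partner of Cd180, rose from 24.2 ± 2.33 to 132 ± 19.1 CPM, and its log2 FC of 2.44 ± 0.12 stood beside 1.90 for Cd180. Ly96, the partner of Tlr4, had only 15 and 8 counts in WT and 32 and 26 in Mek1/2-tKO, or log2 FC 1.52 ± 0.59 (adjusted p = 0.0421). Its call was lost in DESeq2, with library size alone, with a replicate block, and without WT replicate 2 or Mek1/2-tKO replicate 1. Cd14, which hands lipopolysaccharide to Tlr4, had a log2 FC of 1.86 (adjusted p = 0.0119) and lost its call without Mek1/2-tKO replicate 1, which left 5 genes of the list higher. Cd36, a scavenger receptor that serves Tlr2 with Tlr6, rose by log2 FC 3.36 ± 0.17. The chaperone Cnpy3 and the endosomal transporter Slc15a4 had log2 FC values of 0.84 and 0.75 and passed, and the chaperone Hsp90b1 was under the fold change threshold at 0.26. The other 2, Lbp and Tril, had too few counts.

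None of the listed adaptors and kinases behind the receptors was called higher. The inhibitors, among them the adaptor Dok3 and the Irak protein Irak3, are given separately below. Of 5 further adaptor genes 4 were tested and none was called, among them Tirap, which bridges Tlr2 and Tlr4 to Myd88 (log2 FC -0.35), and Ticam1, the adaptor of Tlr3 (0.12). Pik3ap1, the adaptor that links the receptors to PI3K, was higher in both Mek1/2-tKO libraries but under the fold change threshold (log2 FC 0.43, adjusted p = 0.00386). Of 18 kinases, ubiquitin ligases and their partners, all tested, none was higher and 3 were lower, a share near the 16.4% called lower among all tested genes, with a median log2 FC of -0.32. Ikbke, a kinase that activates Irf3 and Irf7, fell from 51.7 ± 1.19 to 23.8 ± 2.95 CPM (log2 FC -1.12 ± 0.12), Traf6, the ubiquitin ligase downstream of Irak kinases, from 92.8 ± 7.77 to 52.0 ± 2.29 CPM (log2 FC -0.84 ± 0.10) and Tab3, a subunit of the TAK1 complex, from 11.7 ± 2.39 to 6.81 ± 0.683 CPM (log2 FC -0.78 ± 0.22). Irak4, the first kinase on Myd88, had a log2 FC of 0.44 (adjusted p = 0.0298) and Map3k8, the kinase that activates MEK1/2 downstream of the receptors, one of -0.47 (adjusted p = 0.00244), and both were under the fold change threshold. Without WT replicate 1, Irak4 was called higher and Tab3 was no longer called. With scaling by library size alone, 5 genes of this list were lower in place of 3.

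Of 9 inhibitors of the pathway, 2 were higher, 2 lower and 5 not called. These counts are near the shares called higher (19.3%) and lower (16.4%) among all tested genes. Dok3, an adaptor that restrains receptor signalling in B cells and macrophages, rose from 4.77 ± 1.46 to 124 ± 14.4 CPM, or log2 FC 4.70 ± 0.17. Irak3, the Irak protein that blocks Irak4 and Irak1, had a log2 FC of 0.82 (adjusted p = 0.0217), and DESeq2, or leaving out WT replicate 1, WT replicate 2 or Mek1/2-tKO replicate 1, left 1 gene of this list higher in place of 2. Sigirr, an inhibitory member of the IL-1 receptor family, fell from 136 ± 5.77 to 67.1 ± 1.35 CPM (log2 FC -1.02 ± 0.09). Tnfaip3, which removes ubiquitin chains made by Traf6, had a log2 FC of -0.63 ± 0.10. Without WT replicate 2 or without Mek1/2-tKO replicate 1, 1 gene of the list was lower. Of 6 transcription factors, Irf7 rose from 6.99 ± 0.860 to 58.5 ± 2.85 CPM (log2 FC 3.07) and Irf5 from 41.6 ± 0.239 to 129 ± 7.51 CPM (log2 FC 1.63), both of which act downstream of Myd88. Nfkb1, the precursor of the NF-κB subunit p50, was lower, with a log2 FC of -0.97.

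Among 17 genes that ligands of these receptors classically induce, 16 were tested, 13 were higher and 1 was lower, with a median log2 FC of 2.36. Of the 13 that did not depend on Mek1/2-tKO to reach the filter, 10 were higher and 1 was lower, with a median log2 FC of 1.65. Most of them are also induced in other ways, for example by the antigen receptor. The chemokine gene Ccl3 rose from 59.3 ± 4.37 to 1507 ± 181 CPM, or log2 FC 4.67 ± 0.11. Cxcl1, a neutrophil chemokine, had 0 counts in both WT libraries and 20 and 25 in Mek1/2-tKO, at least 8.47-fold higher against a floor of 3 counts per WT library. Among the called genes, the smallest rises were those of Tnf (log2 FC 0.73) and Cxcl10 (1.06). Nfkbiz (0.48) and Socs3 (-0.47) were under the fold change threshold. Nos2, the inducible nitric oxide synthase, fell from 7.28 ± 2.10 to 1.35 ± 0.353 CPM (log2 FC -2.41). Of 6 receptor genes of the IL-1 family that also use Myd88, 4 were higher and none was lower. The IL-18 receptor chains Il18r1 and Il18rap and the IL-33 receptor gene Il1rl1 had log2 FC values of 2.97, 2.71 and 3.43. Il1r1 had 0 and 2 counts in WT and 16 and 24 in Mek1/2-tKO, a ratio of 22.6 with a 95% counting interval of 5.87 to 193, and entered the test through Mek1/2-tKO only.

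Together, the 8 lists of pathway genes held 75 genes, of which 67 were tested, 28 were higher and 7 were lower. Of the 28, 1 co-receptor gene, 3 response genes and 1 IL-1 receptor family gene depended on Mek1/2-tKO to reach the filter. The calls of these genes are a description. Over all tested genes, 19.3% were called higher and 16.4% lower. The rises lay in the co-receptors, the response genes, the IL-1 receptor family, 2 of 9 inhibitors and 2 of 6 transcription factors. For the inhibitors this was near the share called higher among all tested genes, and 2 other inhibitors were lower.

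**Figure D4:**
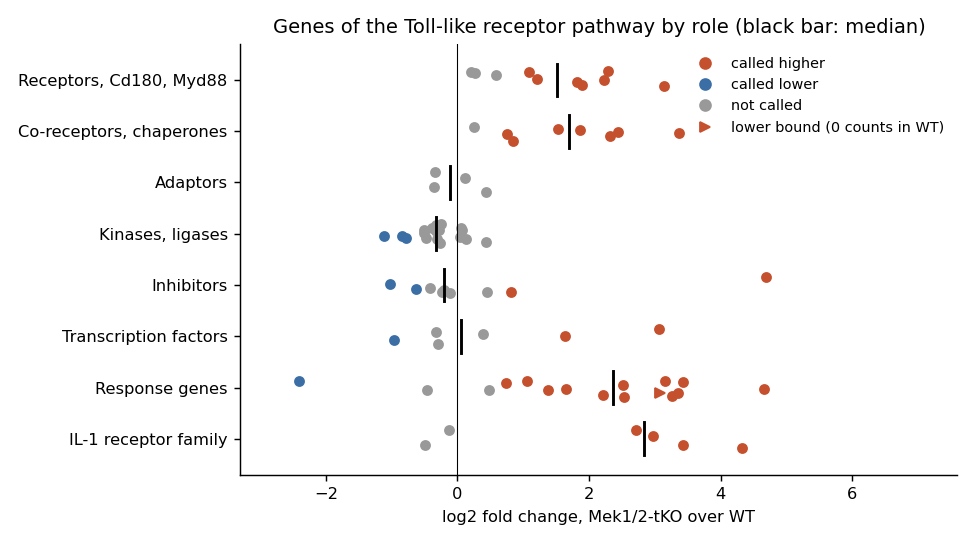
Log2 fold change (horizontal axis) of each tested gene, grouped by role, with the median of a group as a black bar. Points are coloured by call, and the triangle is the lower bound of Cxcl1. Adaptors and kinases have medians of -0.11 and -0.32 and lie between -1.12 and 0.44, while co-receptors and response genes lie mostly above it.

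Markers of other cell types moved in the same direction in the same libraries. All 13 B-lineage markers were higher, with log2 FC values from 1.02 to 3.73, and their summed level was 1323 to 1348 CPM in WT and 6952 to 6974 CPM in Mek1/2-tKO. The most abundant were Ighm, which rose from 683 ± 17.9 to 3081 ± 19.4 CPM, and Cd79b. None of these markers was at 0 in any library. Of 12 macrophage, monocyte and neutrophil markers, 6 were tested, and 4 of these (Adgre1, S100a8, S100a9 and Lyz2) reached the filter in both libraries of Mek1/2-tKO only, so that their calls are a description. The other 2, Mpeg1 and Cd68, were higher, of which Cd68 (log2 FC 0.78, adjusted p = 0.0462) lost its call in DESeq2, with no filter, with library size alone, with a replicate block, and without WT replicate 1, WT replicate 2 or Mek1/2-tKO replicate 2. The list had a summed level of 51.1 to 59.5 CPM in WT and 244 to 258 CPM in Mek1/2-tKO, of which Mpeg1, also expressed by B cells, took the largest part. Adgre1, a macrophage surface antigen, had 0 counts in WT and 66 and 83 in Mek1/2-tKO, at least 28.1-fold higher against the same floor, Lyz2 had 8 and 12 counts in WT and 158 and 117 in Mek1/2-tKO, and Ly6g was at 0 throughout.

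Of 8 dendritic-cell markers 5 were tested, Ccr9 and Itgax through Mek1/2-tKO only, and the other 3 were higher. The list had summed levels of 44.4 to 49.1 CPM in WT and 132 to 160 CPM in Mek1/2-tKO. Most of it came from Batf3, which activated T cells can also express, and Zbtb46. Clec9a and Siglech were at 0 in WT. All 7 NK-cell markers were higher (summed level 96.4 to 99.9 CPM in WT and 598 to 643 CPM in Mek1/2-tKO, mostly Nkg7 and Klrk1), as was Trdc, the 1 of 5 gamma-delta T-cell markers that did not depend on Mek1/2-tKO to reach the filter (summed level of the list 2.59 to 2.87 CPM in WT and 78.5 to 80.7 CPM in Mek1/2-tKO). The 12 T-cell identity genes had a summed level of 3155 to 3159 CPM in WT and 2605 to 2785 CPM in Mek1/2-tKO, with 1 gene higher (Thy1) and 6 lower, among them Cd4, the marker by which the cells are labelled, at 293 ± 5.35 CPM in WT against 22.0 ± 4.48 CPM in Mek1/2-tKO. In bulk RNA, a larger share of cells of one type and more RNA of a gene per cell cannot be told apart, and the part of these cell types in the rise of the receptors was not tested.

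**Figure D5:**
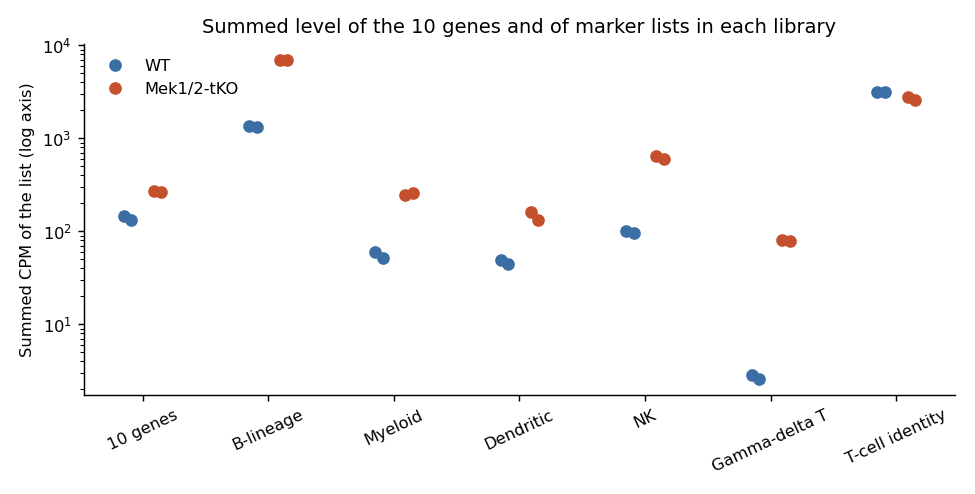
Summed CPM (log axis) of the 10 genes and of 6 marker lists in each of the 4 libraries. The Mek1/2-tKO points are above the WT points in every list but T-cell identity, where they are below.

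The targeted genes were read in the same libraries. Map2k1 fell from 185 ± 4.01 to 102 ± 5.01 CPM (log2 FC -0.86), and Map2k2, at 160 ± 7.18 CPM in WT against 177 ± 7.52 CPM in Mek1/2-tKO, did not pass. A count over a whole gene does not separate transcripts with and without the deleted exons. The libraries held 16330802 to 18931090 counts.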

How the data were processed

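RNA of 2 WT and 2 Mek1/2-tKO libraries was analysed as deposited. The authors trimmed the reads with Trimmomatic (0.36), mapped them to GRCm38 and deposited the count of uniquely mapped reads per gene from featureCounts (Subread 1.5.1), without normalization. The annotation release and the strand setting are not given in the sources used here. Symbols were matched to 54723 of 54752 identifiers. Of low counts (1 to 20), 65.4 to 68.2% were even, as would be seen if the mates of a pair were counted separately (not tested). Intervals and floors cover counting error only and would then be too narrow.

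After TMM scaling and edgeR's filter on low counts (filterByExpr), counts were tested by a robust quasi-likelihood fit of edgeR 4.0.16 (R 4.3.3), and p values were adjusted over all tested genes by Benjamini-Hochberg. The fold change rule follows the study's methods, and standard errors were taken as the log2 fold change over the root of F. RPKM were computed from TMM-scaled CPM and the deposited exon length. The procedure was run on simulated counts with known changes and a common dispersion for all genes. The limit that DESeq2 had to reach there was lowered after a shared limit had failed. Such counts hold no differences in spread between genes, so no support for the results is drawn from that run. Replicates differed by more than sampling noise (chi-square per gene 4.11 in WT and 10.7 in Mek1/2-tKO). Members and lists were chosen with earlier results of these data known. Genes were named by a fixed rule: all members and their known partners, the called genes with the largest and smallest changes of each list, and the most abundant markers. Genes named outside it were chosen after their values were seen. As alternatives, DESeq2 1.42.0 and a likelihood-ratio test were run, with other scalings, filters and thresholds, a replicate block, and each library left out.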

Additional observations from a re-analysis of the deposited data

How the results depend on the processing

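Tlr1, Tlr4, Tlr7, Tlr9 and Cd180 stayed past both thresholds under all 12 alternatives that test them. Tlr3 had an adjusted p of 0.0147 with no filter, and a minimum of 10 counts in every library or halved counts left it untested. The log2 fold change of Tlr6 was 1.09 in DESeq2 and no longer passed, and with each library left out it ranged from 0.88 to 1.28. A fit without a library has 1 genotype with 1 library, assumed to vary like the other genotype. Tlr2, Tlr12 and Myd88 passed under no alternative. With at least 10 counts in every library, 2 myeloid and 1 gamma-delta T-cell markers were higher in place of 6 and 3. Between 6 and 7 members were higher and 0 lower under all alternatives. With an adjusted p under 0.05 and no fold threshold, 3903 genes were lower in place of 2355, and 19 genes of the pathway lists in place of 7, with 11 of them among the kinases and ligases. With library size scaling, 2388 genes were higher and 2848 lower in place of 2768 and 2355, so that the larger direction turned, and 7 members were higher. A replicate block gave 2652 higher and 2300 lower genes, with 7 members higher. The deviations of libraries with the same number correlated at -0.0242, so the numbers were not taken as pairs. The low counts of Tlr2, Tlr3, Tlr4, Tlr6 and Tlr12 limit what can be said of them.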

Other observations

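Low counts were more often even than odd in all 4 libraries, with 65.4 to 68.2% even among counts of 1 to 20. This would be seen if both mates of a read pair were counted, and it bears most on the rare receptors. After halving all counts, an alternative chosen after the data were seen, 6 of the members were higher, 13182 genes were tested and 20.1% of them were called higher. Taken as read pairs, Tlr3 had 1 pair in each WT library and 8 and 9 in Mek1/2-tKO, and the interval of its ratio widened to 2.28 to 85.8.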
